A study of Mus musculus with 6 samples.

Results

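The 9 genes described here code for factors of the NF-κB pathway, for proteins that hold it back and for a pair of chemokines. They are Nfkb1, Nfkb2, Rela, Relb, Nfkbia, Nfkbie, Tnfaip3, Ccl2 and Ccl7, and they were chosen by name out of 32049 target genes. Every enhancer-promoter pair whose target gene is one of the 9 was taken from both conditions, which gave 19 of 66637 pairs in Ctr-OPCs and 19 of 71478 pairs with IFN-γ. The cells were primary oligodendrocyte precursor cells (OPCs) that proliferated in culture with bFGF and PDGF-AA, from brains of mice carrying Sox10-Cre and the RCE reporter. The labels give the strain as C57BL/6j, and per the methods the Cre line was of this background and the reporter line of a mixed one with CD1. Ctr-OPCs were kept in this medium without the cytokine, and IFN-γ-OPCs had 100 ng/mL IFN-γ in the same medium, started 24 h after passaging. Cells of both groups came from pups of postnatal day 4 to 6 and both sexes, several brains were pooled for a culture, replicates came from different litters, and the exposure lasted 48 h, as the study's methods state. The Cre marks the whole oligodendrocyte lineage, and sorting was on the reporter or on CD140a.

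NF-κB factors are dimers of the Rel family. In resting cells they are held in the cytoplasm by the inhibitors of the IκB group, and signals from cytokine and innate immune receptors lead to the breakdown of these inhibitors, after which the dimers enter the nucleus and bind κB sites in enhancers and promoters. The genes of several inhibitors are themselves targets of the factors, so the pathway limits itself.

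HiChIP for the histone mark H3K27ac was used to measure contacts, and these were combined with chromatin accessibility and H3K27ac in the activity-by-contact (ABC) model. The ABC score of an element for a gene is the element's activity times its contact with the gene's promoter, divided by the sum of that product over all elements round the gene. That sum is called the gene total below. Activity is a signal made from accessibility and H3K27ac coverage, adjusted contact is the HiChIP contact in bins of 5 kb with a pseudocount added, and neither has a physical unit. For an element closer to the TSS than the width of a bin, contact may not be separate from that of the promoter. The promoter activity quantile is the rank of the activity of a gene's promoter, on a scale from 0 to 1. A pair with a score above 0.05 is called a connection. The tables start at a score of 0.02, and they hold neither promoter elements nor genes with a promoter activity quantile under 0.4. For each condition 1 table pools 3 libraries, so no value below has a replicate error and no difference between the conditions was tested. Ratios over 1.5-fold are called differences of size only. The oligodendrocyte lineage was visible in both tables, with 6 of 6 lineage markers listed (Pdgfra, Cspg4, Ptprz1, Olig1, Olig2 and Sox10) at a median promoter quantile of 0.93 in Ctr-OPCs and 0.94 with IFN-γ. Microglia, which use NF-κB and make Ccl2, had 4 of 8 markers listed in Ctr-OPCs and 5 of 8 with IFN-γ, with quantiles from 0.47 to 0.78 and from 0.47 to 0.82. Itgam and Cd68 were in neither table, Aif1 (0.47) and Tmem119 (0.74) were listed with IFN-γ only and Tyrobp (0.66) in Ctr-OPCs only. Of those in both, Csf1r had quantiles of 0.47 and 0.62, Cx3cr1 of 0.62 and 0.60 and P2ry12 of 0.78 and 0.82. Astrocytes had 4 of 5 markers listed in each condition, with Aqp4 in neither. Endothelial and mural cells had 3 of 5 and then 5 of 5, with Pecam1 and Cldn5 listed with IFN-γ only. In Ctr-OPCs and with IFN-γ the median quantiles were 0.70 and 0.63 for astrocytes and 0.67 and 0.61 for endothelial and mural cells. Those of microglia were 0.64 and 0.62. The part of such cells in the values below was not tested, and more cells of a type and more signal per cell cannot be told apart in pooled cultures.

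All 9 genes were listed in Ctr-OPCs, and 8 were listed with IFN-γ, where Tnfaip3 was absent. The 9 genes had 5 connections in Ctr-OPCs and 6 with IFN-γ. Nfkb1 and Nfkbie each had 1 connection more with IFN-γ and Nfkb2 had 1 fewer, against 14.9% of all 32049 genes with more connections and 13.0% with fewer. Scored from the power law instead of HiChIP, the difference was 0 for Nfkb1 and for Nfkb2, 1 for Nfkbie and -1 for Nfkbia. Of the connections of the 9 genes, 4 were shared between the conditions, which is 80% of those in Ctr-OPCs and 66.7% of those with IFN-γ. Over all genes 49.5% and 46.3% were shared. The highest score of the 9 genes was 0.0596 in Ctr-OPCs, for Nfkbia, and 0.0728 in IFN-γ-OPCs, for Nfkbie, so none was above 0.1.

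**Figure D1:**
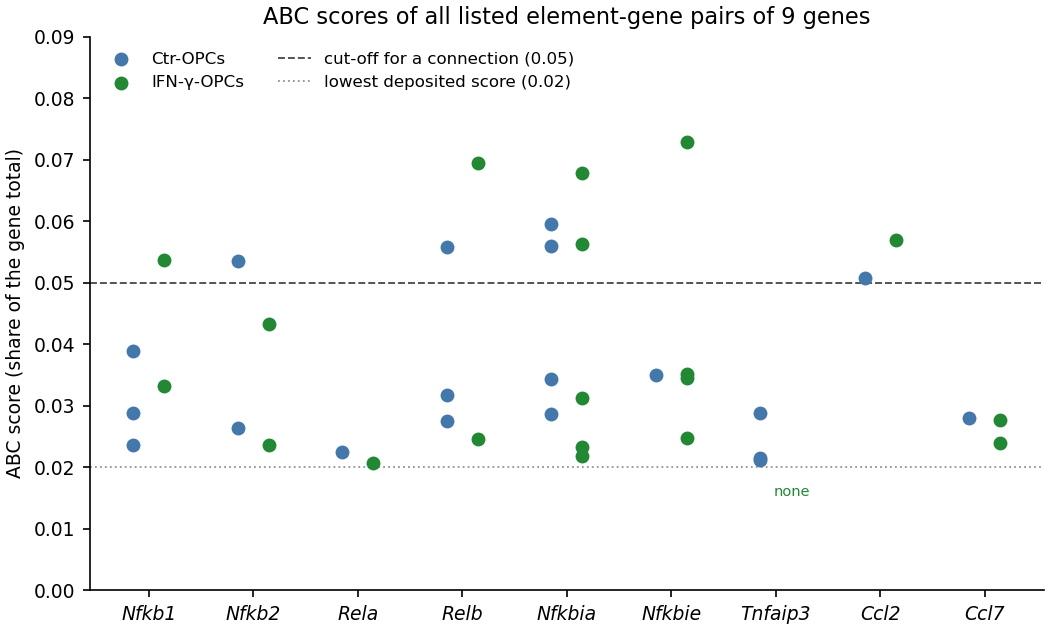
ABC scores (vertical axis, share of the gene total) of all listed element-gene pairs of the 9 genes, with Ctr-OPCs in blue and IFN-γ-OPCs in green; each point is 1 pair, the dashed line is the cut-off for a connection and the dotted line the lowest deposited score. Connections number 5 in Ctr-OPCs and 6 with IFN-γ, the highest point is the Nfkbie element at 0.0728 with IFN-γ, and Tnfaip3 has no pair in IFN-γ-OPCs.

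The elements lay between 1.1 and 821 kb from the transcription start site (TSS) in Ctr-OPCs, with a median of 12.8 kb, and between 1.66 and 132 kb in IFN-γ-OPCs, with a median of 19.0 kb. Over all pairs the medians were 15.1 and 15.8 kb. For each condition, 14 of the 19 pairs used an element that was listed with other genes as well. Of the 19 pairs per condition, 11 were listed for the same gene in the other condition. Of the others, 3 without and 2 with IFN-γ used elements that the other condition listed with other genes only, and 5 and 6 used elements that it did not list. Such an element may have scored under 0.02 for every gene there, may not have been a candidate, or may have been part of a promoter element, and these cannot be told apart. The gap to the nearest annotated gene start was at most 1.4 kb for 3 of them, at Nfkbia, Rela and Nfkbie, and at least 5.54 kb for the other 8. The width of promoter elements is not known from the tables. For the 11 pairs listed for the same gene in both conditions, the log2 ratio of the score is the log2 ratio of activity plus that of contact minus that of the gene total, and so each part can be read separately.

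In these matched pairs, which cover 7 of the genes and leave out Rela and Tnfaip3, no part as deposited passed 1.5-fold. Pairs listed in 1 condition only are not in this count. The gene total, known for 8 of the genes in both tables, had log2 ratios of IFN-γ-OPCs over Ctr-OPCs from -0.20 to 0.22 with a median of -0.02, and the median of all 20321 genes was -0.07. Of these 20321 genes, 0.615% had a total over 1.5-fold higher and 0.118% over 1.5-fold lower with IFN-γ. The activity of the 10 matched elements had log2 ratios from -0.46 to 0.25 with a median of -0.02, against a median of -0.09 over 17223 elements, of which 9.26% were over 1.5-fold higher and 13.6% over 1.5-fold lower. Adjusted contact had log2 ratios from -0.40 to 0.52 with a median of 0.10 over the 11 pairs, against 0.05 over 29858 pairs, of which 12% were over 1.5-fold higher and 8.33% over 1.5-fold lower. Divided by the width of the element, a measure added after seeing the data, activity passed 1.5-fold upward for 1 of the 10 elements, that of Ccl2 and Ccl7 (log2 ratio 0.83), and downward for 1, in Relb (-1.18), beside 7.65% and 5.23% of all 17223 elements. Both were of unequal width in the conditions.

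**Figure D2:**
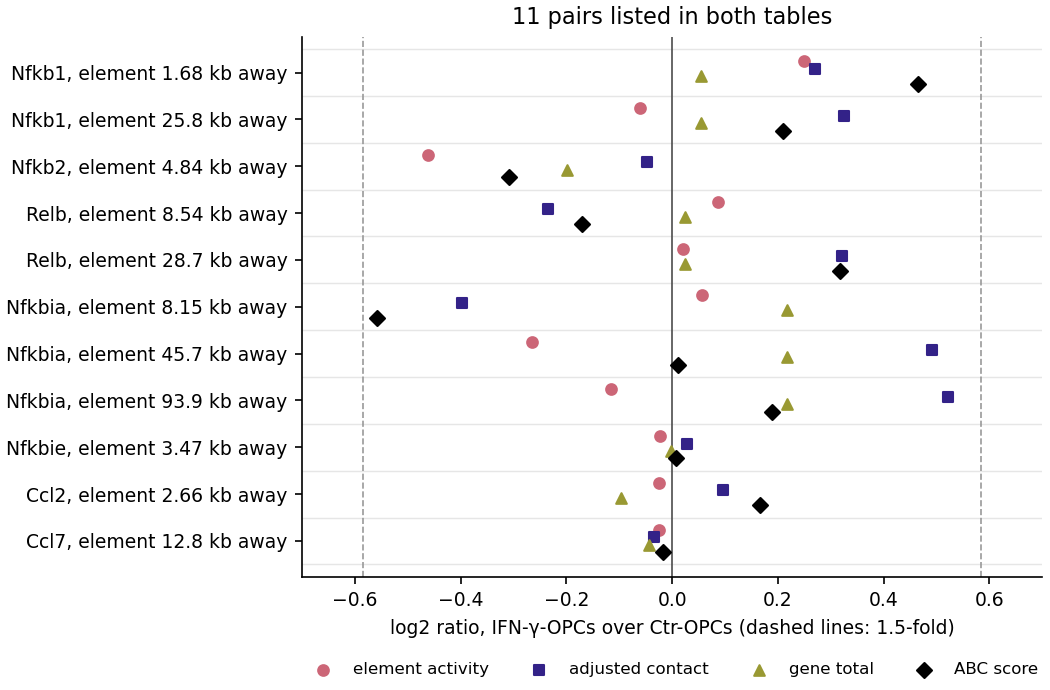
Log2 ratios of IFN-γ-OPCs over Ctr-OPCs (horizontal axis) of element activity, adjusted contact, gene total and ABC score for the 11 pairs listed in both conditions, 1 row per pair with the distance of the element from the TSS in Ctr-OPCs. All points lie inside the dashed 1.5-fold lines; contact is highest for the Nfkbia elements 93.9 and 45.7 kb away (0.52 and 0.49) and lowest for the one 8.15 kb away (-0.40).

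Among the factors, Nfkb1 codes for p105, the precursor of the p50 subunit. The gene lies on the minus strand of chromosome 3 (chr3:135584655-135691547), and its promoter quantile was 0.875 in Ctr-OPCs and 0.898 with IFN-γ. An intergenic element of 500 bp upstream of the gene (chr3:135692978-135693477), 1.68 kb from the TSS, was listed with no other gene. Its activity was 0.644 in Ctr-OPCs and 0.765 with IFN-γ, its adjusted contact was 0.0335 and 0.0404, and its score was 0.0389 and 0.0536. Activity and contact were thus both higher with IFN-γ, by 1.19 and 1.21 times, and the score crossed the cut-off. The element held no match to the NF-κB, GAS or ISRE motifs described below. A second element in an Nfkb1 intron, 25.8 kb into the gene, had scores of 0.0288 and 0.0332. Another, 81.6 kb into the gene, was listed at 0.0237 in Ctr-OPCs only. The gene total was 0.555 in Ctr-OPCs and 0.577 with IFN-γ.

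Nfkb2 codes for p100, which acts as an inhibitor until it is cut to the p52 subunit. Its 500-bp element at a coding exon (chr19:46308916-46309415), 4.84 kb downstream of the TSS, had the lowest activity ratio of the matched elements. Activity was 1.67 in Ctr-OPCs and 1.21 with IFN-γ, with adjusted contact of 0.0566 and 0.0548. The score was 0.0536 and 0.0433, on either side of the cut-off. The other element of Nfkb2 in Ctr-OPCs, at Cuedc2 and Fbxl15, had an activity of 1.57, and in IFN-γ-OPCs, where it was listed with other genes only, of 1.14. With IFN-γ Nfkb2 was also listed with an element at 2310034G01Rik, 44.7 kb downstream (score 0.0235), whose activity was the higher one with IFN-γ, at 2.29 against 1.92 in Ctr-OPCs, where it was listed with other genes only. Promoter quantile (0.885 and 0.827) and gene total (1.76 and 1.53) were lower with IFN-γ. The total's log2 ratio of -0.20 lay at the 17.1 percentile of all genes, and the change in quantile at the 15.4 percentile.

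Rela codes for the p65 subunit, the main activating partner of p50. It had 1 pair in each table, with different elements and scores close to the lower limit. In Ctr-OPCs the element lay at a Rela coding exon (chr19:5638339-5638838), with an activity of 0.610 and a score of 0.0225, and it began 0.856 kb from the TSS. In IFN-γ-OPCs it was an intergenic element beyond the end of the gene (chr19:5648622-5649121), with an activity of 1.04 and a score of 0.0207. The promoter quantile was 0.906 and 0.938. The gene total was 1.77 in Ctr-OPCs and 1.62 with IFN-γ. Rela, Nfkb2, Nfkbie and Relb had the highest totals of the listed genes in both conditions, and Tnfaip3 had none with IFN-γ. Listed pairs made up 2.25% and 2.07% of the Rela total. The highest such shares among the 9 genes were 17.9% and 20.1%, for Nfkbia, so most of each total came from elements that are not listed.

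Relb codes for the partner of p52 in the alternative pathway. Its connection was an element in a Clasrp intron (chr7:19600515-19601014), 28.7 kb downstream of the Relb TSS, and this was the most active element listed with any of the 9 genes. Activity was 5.72 in Ctr-OPCs and 5.80 with IFN-γ, at the 99.7 and 99.8 percentile of all elements. It was listed with 15 other genes in Ctr-OPCs and 12 with IFN-γ, among them Apoc1, Clasrp, Mark4 and Bloc1s3, so it is not particular to Relb. The score for Relb was 0.0557 and 0.0695. Activity differed by 1.01 times and adjusted contact by 1.25 times (0.01319 and 0.01648). An element within Relb, 8.54 kb from the TSS, had scores of 0.0276 and 0.0245. It was 500 bp wide in Ctr-OPCs and 1204 bp with IFN-γ, and its activity of 0.732 and 0.777 gave a log2 ratio of 0.09, against -1.18 per base pair. One at a Relb coding exon and UTR, 10.04 kb from the TSS, had an activity of 1.75 in Ctr-OPCs and 1.33 with IFN-γ, and with IFN-γ it was listed for Clasrp but not for Relb.

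The inhibitor Nfkbia (IκBα) is the classical feedback gene of the pathway. It lies on the minus strand (chr12:55489410-55492647) and had 2 connections in each condition, both with distant elements downstream of the gene. An element at the exons of Psma6 (chr12:55398544-55399043), 93.9 kb away, had an activity of 3.21 in Ctr-OPCs and 2.97 with IFN-γ, adjusted contact of 0.0126 and 0.0181, and a score of 0.0596 and 0.0679. An intergenic element (chr12:55446674-55447173), 45.7 kb away, had an activity of 3.63 and 3.02, adjusted contact of 0.0105 and 0.0147, and a score of 0.0559 and 0.0563. For both elements contact was over 1.4 times higher with IFN-γ while activity was lower, and the scores differed by 1.14 and 1.01 times. The remaining shared element, 8.15 kb downstream and listed with no other gene in Ctr-OPCs, showed the opposite order, with contact of 0.0232 and 0.0176 and a score of 0.0343 and 0.0233.

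In IFN-γ-OPCs Nfkbia was also listed with elements 28.2 kb (activity 2.33, score 0.0313) and 19.0 kb downstream (score 0.0218), neither of which was listed for any gene in Ctr-OPCs. In Ctr-OPCs it was listed with an upstream element, 6.68 kb away (score 0.0287), that was not listed in IFN-γ-OPCs. The Nfkbia total was 0.680 in Ctr-OPCs and 0.791 with IFN-γ, 1.16 times higher and at the 91.3 percentile of all genes. This direction depended on the contact used. With contact from the power law of distance in place of HiChIP the log2 ratio was -0.06, not 0.22. The promoter quantile was 0.935 and 0.899.

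The windows of both Nfkbia connections that match the NF-κB consensus are shown since the elements were connections in both conditions. Matches are in capitals, on the plus strand of GRCm38. The match in the nearer element is a run of 11 bases in which matches on both strands overlap.
Nfkbia element 45.7 kb away, chr12:55446807-55446937: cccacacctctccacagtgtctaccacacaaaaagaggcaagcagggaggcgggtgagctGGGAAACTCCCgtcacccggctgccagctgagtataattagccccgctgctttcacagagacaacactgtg
Nfkbia element 93.9 kb away, chr12:55398695-55398824: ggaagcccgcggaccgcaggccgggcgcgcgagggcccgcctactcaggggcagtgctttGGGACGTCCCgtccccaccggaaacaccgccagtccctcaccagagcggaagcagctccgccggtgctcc

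Nfkbie (IκBε) is a related inhibitor that is also a target of the factors. It had 1 pair in Ctr-OPCs and 4 with IFN-γ, and the summed score of its listed pairs was 3.50% and 16.7% of the gene total. The shared element lay 3.47 kb upstream and hardly differed, with an activity of 1.119 and 1.102, adjusted contact of 0.0491 and 0.0501, and a score of 0.0350 and 0.0352. The connection in IFN-γ-OPCs was an element of 1788 bp that overlaps a coding exon of Nfkbie (chr17:45557103-45558890), with an activity of 2.28, at the 91.5 percentile, and a score of 0.0728. It was listed with 5 other genes too, Hsp90ab1, Slc35b2, Spats1, Tcte1 and Tmem151b. In Ctr-OPCs no listed element overlapped it. This does not show that the site was inactive in Ctr-OPCs, because no element of the promoter class is in the tables, and an element that had merged with the promoter would be missing. The element began 1.4 kb from the Nfkbie TSS, and the widest listed element in Ctr-OPCs, where none is of the promoter class, was 4158 bp. The total of Nfkbie was 1.57 in both conditions, differing by -0.0026, whereas the activity times contact of this element was 0.114 in IFN-γ-OPCs, which is 7.28% of the total. A site that was absent and a site that was merged with the promoter cannot be told apart here. Its adjusted contact equalled that of the upstream element (0.0501). Both elements lie closer to the TSS than the 5-kb bins of contact, so these values may not be separate measurements.

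The other Nfkbie elements in IFN-γ-OPCs were one at an Aars2 coding exon, 38.7 kb upstream (score 0.0248), and an intergenic one 28.9 kb downstream (score 0.0345). The latter was listed with other genes in Ctr-OPCs, with an activity of 2.69 there and 2.50 in IFN-γ-OPCs. Since its score for Nfkbie was under 0.02 in Ctr-OPCs, its adjusted contact with Nfkbie was under 0.0117 there, against 0.0217 with IFN-γ, and so at least 1.85 times higher with IFN-γ. The same bound put contact higher in Ctr-OPCs for the Nfkb2 element at Cuedc2 and Fbxl15 and the Relb element at a coding exon and UTR. There the ratios were about 1.10 and 1.19 or more. For the Nfkb2 element at 2310034G01Rik and the farthest Tnfaip3 element no direction could be read. The gene whose elements were most like those of Nfkbie was Tmem151b, which lies beside it. Over both conditions it shared all 5 elements listed with Nfkbie, out of 6 of its own. In these counts an element whose ends differ between the conditions is counted once for each, so there are fewer sites than elements. Counted the same way, Gm36634 shared 7 of the 9 elements listed with Nfkbia. Gm17268 shared both versions of the Ccl2 element and had no other. For Nfkb1, Nfkb2, Relb and Tnfaip3 the share of the joint set of elements was at most 0.333.

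The 1788-bp element held 5 matches to the NF-κB consensus, the most of any element listed with the 9 genes, and it is also the widest of those that were connections. The matches are shown in capitals in the windows that hold 3 and 2 of them, on the plus strand.
Nfkbie element, first window, chr17:45557556-45557854: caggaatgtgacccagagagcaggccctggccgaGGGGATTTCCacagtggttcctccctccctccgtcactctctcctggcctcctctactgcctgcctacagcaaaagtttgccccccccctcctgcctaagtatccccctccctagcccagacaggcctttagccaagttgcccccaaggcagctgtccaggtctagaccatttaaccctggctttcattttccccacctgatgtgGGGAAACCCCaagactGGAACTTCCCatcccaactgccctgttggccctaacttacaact
Nfkbie element, second window, chr17:45557996-45558188: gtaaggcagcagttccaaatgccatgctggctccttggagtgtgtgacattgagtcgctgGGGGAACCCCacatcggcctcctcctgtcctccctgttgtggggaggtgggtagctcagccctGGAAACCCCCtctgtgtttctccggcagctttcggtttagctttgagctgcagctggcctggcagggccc

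Tnfaip3 codes for A20, an enzyme that edits ubiquitin chains and ends signalling to NF-κB. It was listed in Ctr-OPCs only, with 3 pairs and no connection, a promoter quantile of 0.811 and the lowest total of the 9 genes there (0.435). The elements lay 153, 170 and 821 kb upstream, with scores of 0.0288, 0.0212 and 0.0214. The farthest was listed with Slc35d3, Perp and 9230106D20Rik in IFN-γ-OPCs, where its activity was 1.96 against 1.13 in Ctr-OPCs, a log2 ratio of 0.79 and so past 1.5-fold. The other 2, in introns of Gm20139, were not listed with any gene in IFN-γ-OPCs. Of the genes in the Ctr-OPC table, 21.2% were absent from that of IFN-γ-OPCs, so an absence of this kind was common, and whether the gene had no pair above the lower limit or a promoter below the quantile limit cannot be told apart.

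**Figure D3:**
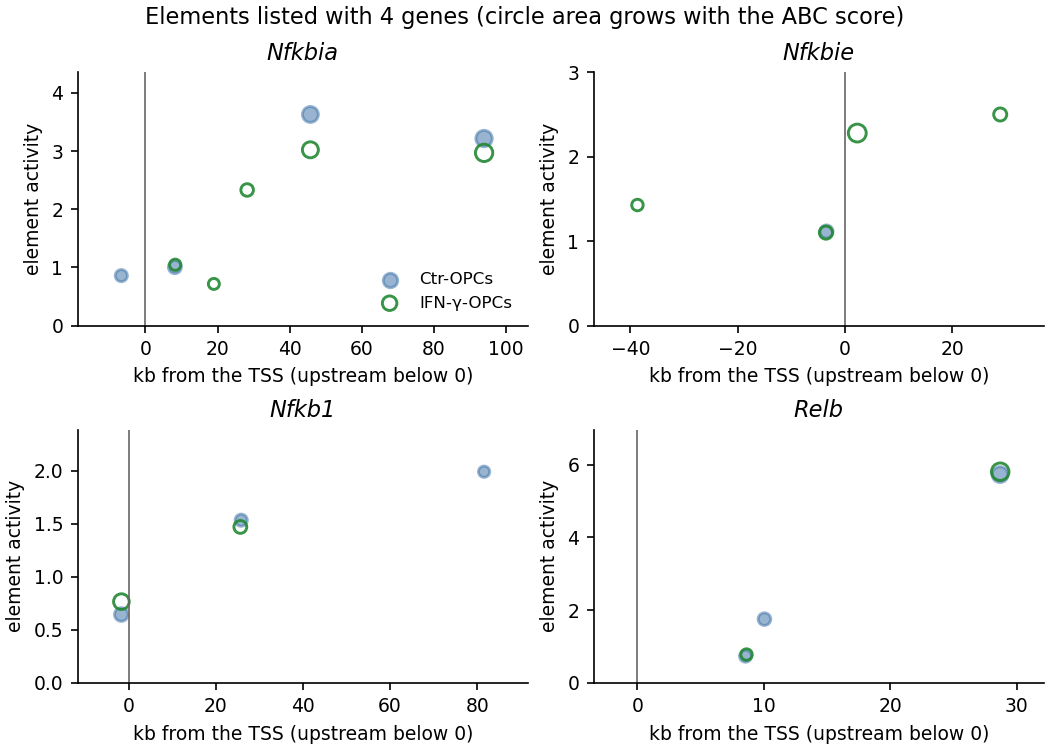
Activity (vertical axis, as deposited) of the elements listed with Nfkbia, Nfkbie, Nfkb1 and Relb against their distance from the TSS (horizontal axis, kb, upstream below 0), with Ctr-OPCs as filled blue and IFN-γ-OPCs as open green circles whose area grows with the ABC score. Nfkbie has 1 element in Ctr-OPCs and 4 with IFN-γ, the Nfkbia elements 28.2 and 19.0 kb downstream are in IFN-γ-OPCs only, and the most active element of Relb coincides between the conditions.

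Ccl2 and Ccl7 code for chemokines that draw monocytes, and they lie next to each other on chromosome 11 with Ccl2 first. They shared 1 element in each condition, in an intron of Gm17268 upstream of Ccl2. In Ctr-OPCs it spanned 904 bp (chr11:82032462-82033365) with an activity of 1.14, and in IFN-γ-OPCs it spanned the last 500 bp of this stretch (chr11:82032866-82033365) with an activity of 1.12. Activity followed the width of an element over the tables (Spearman's rho 0.798 between the 2 ratios, over 8354 matched elements of unequal width, as a description), and per base pair the log2 ratio for this element was 0.83. This value was added after seeing the data. For Ccl2 the score was 0.0507 in Ctr-OPCs and 0.0569 with IFN-γ, a connection in both, although in Ctr-OPCs just above the cut-off. For Ccl7, whose TSS was 12.8 and 12.6 kb from the centre of the element, the score of the same element was 0.0280 and 0.0276, and adjusted contact was 0.0191 and 0.0186 against 0.0366 and 0.0391 for Ccl2.

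Of the 8 genes with a promoter quantile in both tables, Ccl2 had the largest difference, at 0.780 in Ctr-OPCs and 0.874 with IFN-γ. The difference of 0.094 lay at the 90.5 percentile of all 20321 genes, whose differences had a median near 0 and an SD of 0.079. Ccl7 had quantiles of 0.720 and 0.741. The totals were 0.824 and 0.771 for Ccl2 and 0.779 and 0.756 for Ccl7. In IFN-γ-OPCs Ccl7 was also listed with an element at a Ccl1 coding exon, 132 kb downstream (score 0.0239). Among the chemokine genes beside them, Ccl8, Ccl11 and Ccl12 were in neither table and Ccl1 was listed in IFN-γ-OPCs only.

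The stretch of the Ccl2 and Ccl7 element with its NF-κB matches is shown because both versions of the element hold it. The capitals mark the matches, at 2.38 and 2.35 kb upstream of the Ccl2 TSS, on the plus strand. The wider version in Ctr-OPCs held 1 more match outside this window.
Ccl2 and Ccl7 element, chr11:82033131-82033286: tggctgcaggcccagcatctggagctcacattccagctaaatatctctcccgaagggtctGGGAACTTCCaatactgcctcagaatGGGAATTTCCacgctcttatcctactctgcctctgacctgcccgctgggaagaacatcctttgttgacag

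The sequences of all elements were searched on both strands for the 10-base NF-κB consensus, for the GAS motif TTCNNNGAA and for the core of the ISRE, TTTCNNTTT, the site of interferon regulatory factors. To compare equal lengths, elements of 500 bp were used. A match to the NF-κB consensus was found in 4 of 10 such elements listed with the 9 genes in Ctr-OPCs and in 6 of 12 with IFN-γ. Over all 500-bp elements 11.9% and 11.04% held one. The GAS motif was in 1 of 10 and 2 of 12, against 14.6% and 15.7%, and the ISRE core in 3 of 10 and 3 of 12, against 17.9% and 23.0%. These shares are descriptions of few elements, many of them in both tables, and a match does not show that a factor binds.

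The remaining NF-κB matches in connections were single ones in the Relb and Nfkb2 elements, with the same letters, shown here for comparison on the plus strand.
Relb element, chr7:19600727-19600856: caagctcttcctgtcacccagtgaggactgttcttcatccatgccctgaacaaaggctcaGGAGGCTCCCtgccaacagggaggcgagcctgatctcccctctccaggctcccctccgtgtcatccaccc
Nfkb2 element, chr19:46308968-46309097: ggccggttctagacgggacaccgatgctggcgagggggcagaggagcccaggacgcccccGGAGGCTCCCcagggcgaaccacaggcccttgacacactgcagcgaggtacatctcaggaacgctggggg

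Promoters of Nfkb2, Nfkbia, Nfkbie, Rela and Tnfaip3 were in the RefSeq table for GRCm38.p6, each from 250 bases before to 50 bases after a start. Of these 5 genes 4 had at least 1 promoter with an NF-κB match, and the promoter of Rela and 1 of the 2 of Tnfaip3 held none. Of all 32851 promoters 8.46% held a match, a share per promoter that is not on the same footing, since Nfkb2 has 3 promoters in the table, of which a pair overlaps and shares a match, and Tnfaip3 has 2. The Nfkb2 promoter with 3 matches, of which a pair overlaps, is shown since it held the most. It runs on the plus strand, and the capitals mark these and a GAS match, TTCCCCGAA.
Nfkb2 promoter, chr19:46304487-46304786: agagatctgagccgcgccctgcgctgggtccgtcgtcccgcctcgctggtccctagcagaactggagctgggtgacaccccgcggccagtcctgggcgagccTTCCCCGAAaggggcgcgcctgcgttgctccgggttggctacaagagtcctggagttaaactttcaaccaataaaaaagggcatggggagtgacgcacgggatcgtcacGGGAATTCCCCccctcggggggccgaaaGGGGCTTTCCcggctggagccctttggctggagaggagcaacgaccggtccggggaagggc

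A list of 58 further genes of the pathway held receptors, adaptors and kinases, 1 further factor, other inhibitors, known targets and neighbouring chemokine genes. Of the 58, 38 were listed in both conditions, 4 in Ctr-OPCs only, 8 in IFN-γ-OPCs only and 8 in neither. They had 18 connections in Ctr-OPCs and 23 with IFN-γ, with 8 genes that had more and 4 that had fewer. These are 16% and 8% of the 50 listed genes, beside 14.9% and 13.0% of all genes. The median log2 ratio of the 38 totals was -0.04, with 18 higher and 20 lower, and 0 were past 1.5-fold in either direction, beside 0.615% of all genes higher and 0.118% lower.

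By role, the 9 receptors had 0 connections in Ctr-OPCs and 2 with IFN-γ, but only 5 of them were listed in both conditions. The 19 adaptors and kinases had 7 and 8, the 9 other inhibitors 4 and 5, and the 16 targets 7 and 8. The highest total ratio was that of Tlr3, a receptor for double-stranded RNA, with 0.442 in Ctr-OPCs and 0.556 with IFN-γ. Bcl3, a nuclear member of the IκB group, had a total of 0.810 and 1.02, and it had 0 connections in Ctr-OPCs and 2 with IFN-γ. Totals were also higher with IFN-γ for Birc2, a ubiquitin ligase of TNF receptor signalling (0.262 and 0.326), and for Csf1, a growth factor of macrophages (1.08 and 1.32). They were lower for the targets Sod2 (0.885 and 0.741) and Mmp9 (1.80 and 1.52), for the adaptor Tab1 (2.18 and 1.83) and for the receptor gene Tnfrsf1b (0.583 and 0.498). None of these 8, named for the largest ratios on the list, reached 1.5-fold.

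**Figure D4:**
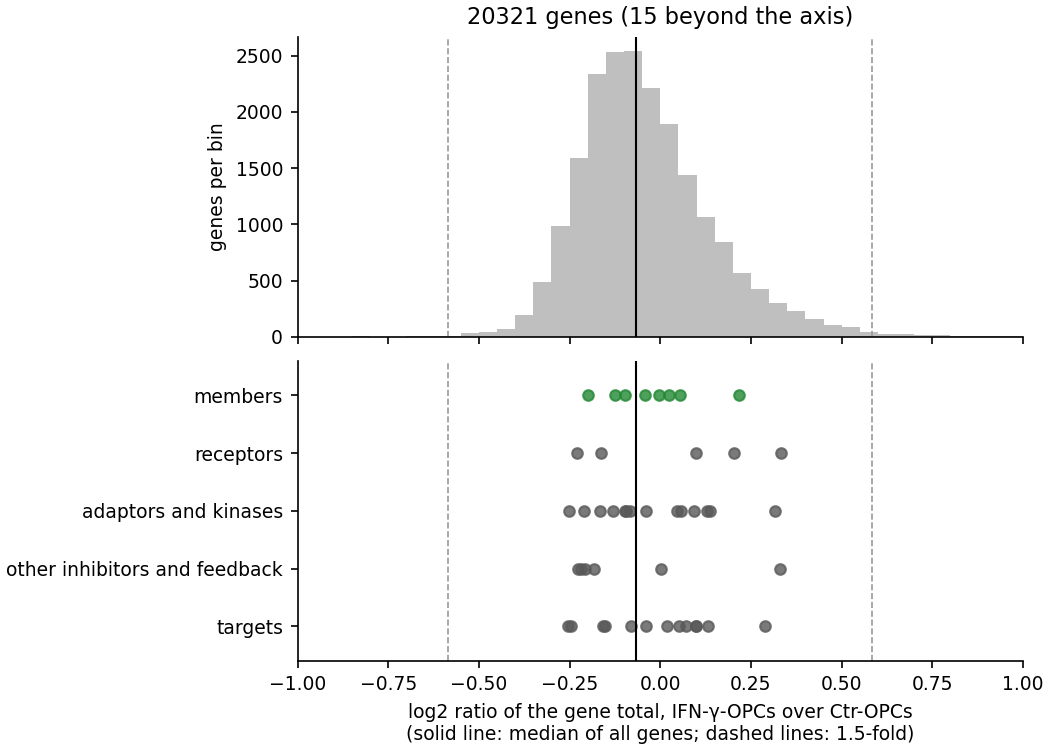
Top, number of genes per bin of the log2 ratio of the gene total (IFN-γ-OPCs over Ctr-OPCs) for 20321 genes; bottom, the same ratio for the members (8 of the 9 genes, green) and for the pathway genes by role (grey), 1 point per gene. The solid line is the median of all genes at -0.07 and the dashed lines are 1.5-fold; all 8 members, between -0.20 and 0.22, and all 38 pathway genes, between -0.26 and 0.33, lie inside them.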

How the data were processed

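The 6 samples of H3K27ac HiChIP, 3 for each condition, were grouped by the treatment in their titles. The authors aligned reads to mm10 with HiC-Pro and ran the ABC model with ATAC-seq and H3K27ac CUT&RUN from the same condition. In the deposited tables activity is a coverage signal, the ABC score is a fraction of the gene total, the promoter quantile is a rank from 0 to 1, and contact, its products and the power-law version are score values. How activity and contact were scaled between conditions is not given in the sources used here, and the depth is unknown.

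Gene totals were computed as activity times contact over score. Elements were matched for the same gene by mutual best overlap of at least 1 bp. Genes were annotated with GENCODE M21 (GRCm38), and 31937 of 32049 target genes were found in it. Named genes were the 9 genes, the 8 pathway genes with the largest ratio of totals, any with a change of 2 connections or more, and genes sharing most elements. The members and lists were chosen with earlier results of these data known. Procedures were run on a copy of the Ctr-OPC values with known changes put in and no noise added. This checks the code only. Python 3.11.15, pandas 2.3.3, NumPy 2.4.6, pysam 0.24.0, samtools 1.23.1 and matplotlib 3.10.9 were used.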

Additional observations from a re-analysis of the deposited data

How the results depend on the processing

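No paired analysis was possible because the 3 libraries of a condition were deposited as 1 pooled table, and for the same reason no library could be left out. Over all deposited pairs the 9 genes had 19 pairs in each condition, with Nfkb1 at a difference of -1 in place of 1, Nfkb2 at 0 in place of -1, Nfkbie at 3 in place of 1, and Tnfaip3 at -3, Relb at -1, Nfkbia at 1 and Ccl7 at 1 in place of 0. At a score above 0.1 they had 0 and 0 connections, and with the power-law score 8 and 8, where the differences of Nfkb1 and Nfkb2 were both 0 and that of Nfkbia was -1. Minus the median of all genes, the median total ratio was 0.044, with Nfkbie at 0.064 and Ccl7 at 0.023. With power-law contact Nfkbia was at -0.062 and Relb at -0.049, and Rela at -0.239 in place of -0.126 was the lowest of the 8 genes. With activity divided by each table's median, the activity ratio was 0.084. With connections of either condition only, the contact ratio was 0.30. An equal number of top pairs left 5 and 6 connections. The shares of shared connections were 80% and 66.7% under both other rules of overlap and 57.9% in each condition over all deposited pairs, and above 0.1 there was no pair to compare. Activity per base pair or over elements of equal width, both added after seeing the data, gave medians of -0.07 and -0.07, but per base pair single elements reached from -1.18 (Relb) to 0.83 (Ccl2 and Ccl7). At 2-fold in place of 1.5-fold, totals of 11 and 4 genes, in place of 125 and 24, were higher and lower with IFN-γ, activity of 471 and 622 elements (1595 and 2348) and contact of 959 and 606 pairs (3577 and 2488).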
